A study of Mus musculus with 9 samples.

Results

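The interleukin-1 system was followed through 10 genes: the agonist ligands Il1a, Il1b and Il18, the antagonist Il1rn and the binding protein Il18bp, the receptors Il1r1, Il1r2 and Il1rap, and the inflammasome genes Nlrp3 and Casp1. They were chosen by symbol among the 23238 gene symbols counted in sorted brain microglia, and all 10 were among the 12292 genes with enough counts to be tested. The cells came from female wild-type C57BL/6N mice of 12 weeks and were sorted as CD45+CD11b+P2ry12+ on day 1. Normal mice had no treatment. NMO mice received IgG of patients with neuromyelitis optica (NMO-IgG) and human complement by injection into the striatum of 1 hemisphere, and NMO+Clodronate mice received the same injection 6 h after clodronate liposomes were given intraperitoneally to deplete circulating monocytes. Each group had 3 libraries, and each library was made from 3 pooled mice. No group with a control antibody or empty liposomes was analysed here. Injection, IgG and complement therefore cannot be told apart in the comparison of NMO with Normal, nor can clodronate and liposomes in the comparison of NMO+Clodronate with NMO.

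Interleukin-1α and interleukin-1β act through a receptor complex of Il1r1 and the accessory chain Il1rap, which recruits MyD88 and leads to NF-kB activation. Il1rn encodes a soluble antagonist that occupies Il1r1 without signalling, and Il1r2 encodes a decoy receptor that binds interleukin-1 but has no signalling domain. Interleukin-1β and interleukin-18 are made as precursors that caspase-1 cleaves after sensors such as NLRP3 assemble an inflammasome, so transcript levels are only the first of several steps. Microglia, the resident macrophages of the brain, can make both cytokines, and circulating monocytes and neutrophils are other known sources of these transcripts.

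The libraries held 5788234 to 7837219 counts, and the 10 genes had 0 to 730 counts per library. Levels are given as CPM, counts per 1000000 counts of a library size that was adjusted by trimmed-mean scaling (TMM), which assumes that most genes do not differ. In these libraries 1 count was worth 0.12 to 0.168 CPM, and a count of 0 allows up to 3 counts. The counts came from the 3′ ends of transcripts, and levels were compared between groups but not between genes. NMO replicate 2 stood apart: 41 genes had no count in it although each of the other 8 libraries had at least 20, against 0 to 13 such genes in the other libraries. Nothing in the labels says more of the replicates than their number. The p values therefore measure the spread between pools of mice and may hold a technical part. The microglial markers were strongly expressed in all 9 libraries, and their sum was 38956 to 43538 CPM in Normal, 32507 to 37594 in NMO and 22041 to 30274 in NMO+Clodronate. P2ry12, whose protein was used in the sort, had 2055 to 2665 CPM in Normal, 1558 to 1756 in NMO and 266 to 449 in NMO+Clodronate.

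The windows around the transcription start sites of a ligand, its antagonist, the decoy receptor and the sensor follow, since these are the genes that the results turn on. Each is the plus or minus strand of RefSeq on GRCm38.p6, from 250 bases before to 50 bases after a start site, in lower case with motif matches in capitals. For Il1rn the first of 3 windows is shown, and for Nlrp3 the 1 of 2 that held a motif match.
Il1b (chr2:129371090-129371389, minus strand): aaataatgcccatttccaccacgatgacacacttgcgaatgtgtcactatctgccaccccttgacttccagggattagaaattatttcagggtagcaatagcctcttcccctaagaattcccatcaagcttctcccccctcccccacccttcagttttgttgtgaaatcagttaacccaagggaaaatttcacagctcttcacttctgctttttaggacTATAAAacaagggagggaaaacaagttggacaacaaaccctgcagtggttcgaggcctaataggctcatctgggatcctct
Il1rn (chr2:24336610-24336909, plus strand): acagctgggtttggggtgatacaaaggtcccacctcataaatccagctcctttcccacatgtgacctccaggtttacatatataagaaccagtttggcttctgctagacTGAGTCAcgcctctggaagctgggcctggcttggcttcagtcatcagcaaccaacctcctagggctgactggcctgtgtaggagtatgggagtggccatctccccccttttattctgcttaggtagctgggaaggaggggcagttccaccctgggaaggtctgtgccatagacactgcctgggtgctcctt
Il1r2 (chr1:40085843-40086142, plus strand): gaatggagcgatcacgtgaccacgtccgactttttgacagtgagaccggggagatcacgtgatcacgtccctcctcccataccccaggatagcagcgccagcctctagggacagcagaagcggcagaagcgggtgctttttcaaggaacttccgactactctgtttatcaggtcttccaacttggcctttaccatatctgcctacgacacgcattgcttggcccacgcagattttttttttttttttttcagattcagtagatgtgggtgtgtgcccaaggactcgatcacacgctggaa
Nlrp3 (chr11:59541319-59541618, plus strand): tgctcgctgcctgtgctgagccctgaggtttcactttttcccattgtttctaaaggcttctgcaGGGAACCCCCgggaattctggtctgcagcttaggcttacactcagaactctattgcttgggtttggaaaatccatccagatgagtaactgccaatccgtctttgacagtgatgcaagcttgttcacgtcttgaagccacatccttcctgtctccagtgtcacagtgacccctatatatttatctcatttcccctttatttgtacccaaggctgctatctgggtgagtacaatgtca

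The capitals mark TATAAA from -31 to -26 in Il1b, the AP-1 motif TGANTCA from -141 to -135 in Il1rn, and the NF-kB motif from -186 to -177 in Nlrp3, counted from the start site. The Il1r2 window held none of the 4 motifs searched on both strands, which were these 3 and the C/EBP motif TTGCNNAA. Over the 14 windows of the 10 genes, TATAAA was found in those of Il1a, Il1b, Il18 and Il1rn, TGANTCA in Il1a and Il1rn, TTGCNNAA in Il18bp and Il1r1, and the NF-kB motif in Il1r1 and Nlrp3. Of 32851 such windows in RefSeq, 13.6% held TATAAA, 7.81% TGANTCA, 10.8% TTGCNNAA and 8.46% the NF-kB motif. The matches are descriptions of the letters and not of binding.

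**Figure D1:**
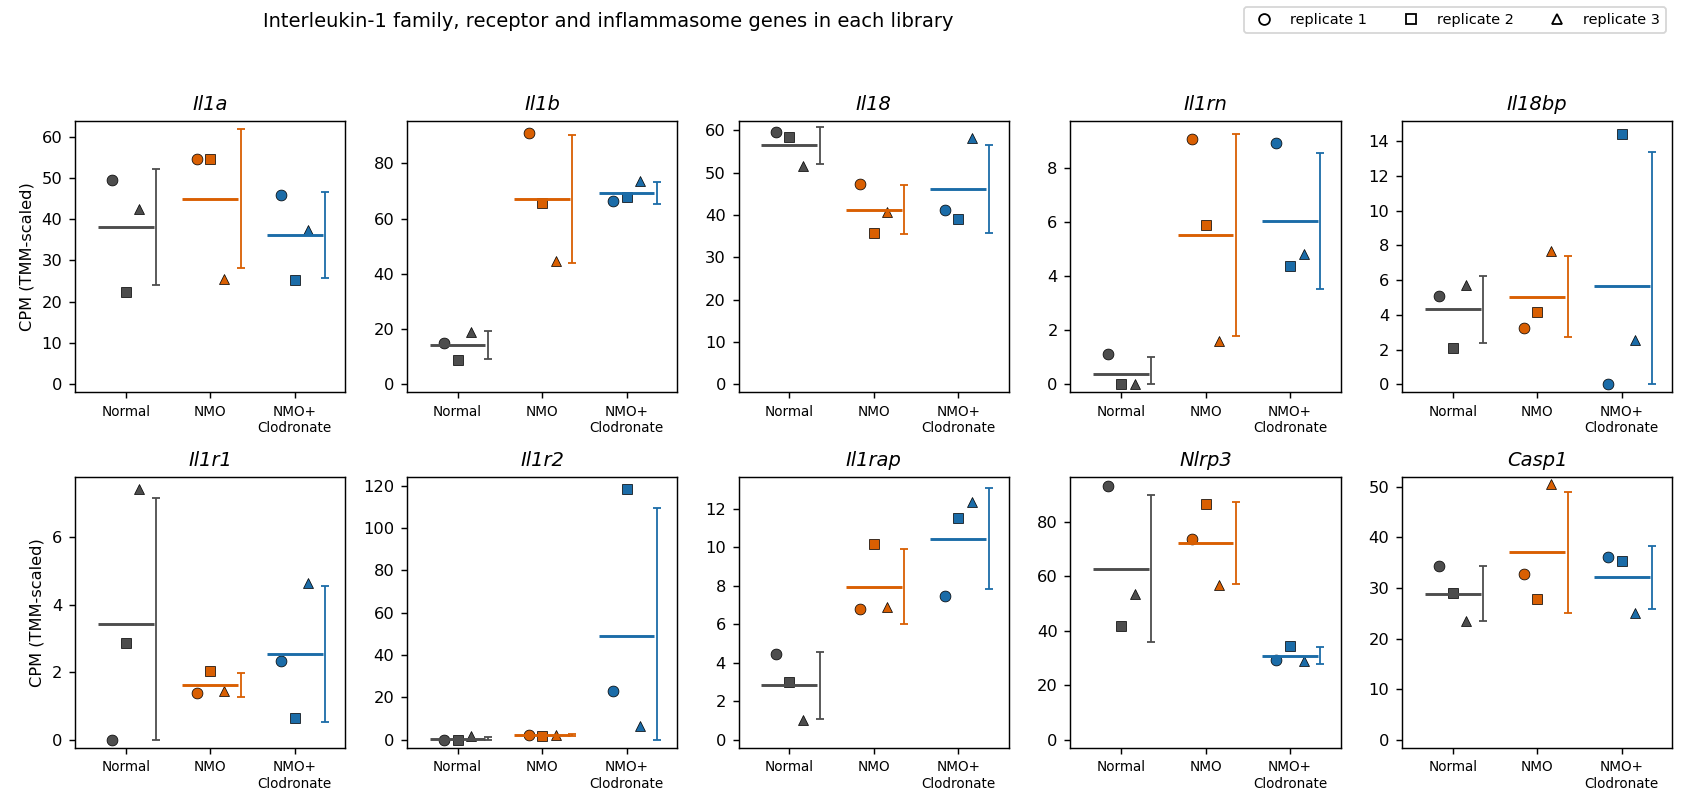
Level of each of the 10 genes in CPM on the y axis, in the 3 libraries of Normal, NMO and NMO+Clodronate on the x axis. Points are libraries, horizontal lines are means and vertical bars are the SD (n = 3), drawn no lower than 0. Il1b was higher in every library of both injected groups (44.5 to 91.2 CPM) than in Normal (8.73 to 18.8 CPM), while 1 library set most of the Il1r2 mean in NMO+Clodronate.

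The first question was what the injection changed in microglia by day 1. Il1b was the only one of the 10 genes called, at an adjusted p under 0.05, and it was higher in NMO. This is 1 of 10 genes higher, where 0.472% of all 12292 genes tested were called higher, and 0 of 10 lower, where 0.0244% were. At an unadjusted p under 0.05, Il1b and Il1rn passed, 2 of the 10 genes against 9.51% of all genes. Both also passed with a 1.5-fold change added, the thresholds of the study, against 7.96% of all genes. The groups did not overlap for 4 genes that were higher in NMO (Il1b, Il1rn, Il1r2 and Il1rap), against 9.21% of all genes, and for 1 that was lower (Il18), against 8.2%. The median log2 fold change of the 10 genes was 0.30, and that of all genes tested was -0.01.

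The second question was what differed when circulating monocytes had been depleted before the injection. Il1r2 was called higher and Nlrp3 lower, and the other 8 genes were not called. The background was 0.529% of genes called higher and 1.07% called lower. The same 2 genes were those whose groups did not overlap, against 7.89% of all genes higher and 9.22% lower. They were also the 2 that passed an unadjusted p under 0.05 (12.4% of all genes) and the thresholds of the study (10.7%). The median log2 fold change of the 10 genes was 0.14, beside -0.01 over all genes. Against Normal, NMO+Clodronate had Il1b and Il1r2 called higher and Nlrp3 called lower, in a comparison where 4.79% of all genes were called higher and 4.43% lower. In that comparison the groups did not overlap for 4 genes higher (Il1b, Il1rn, Il1r2 and Il1rap), against 13.8% of all genes, and for 1 lower (Nlrp3), against 14.9%. At an unadjusted p under 0.05, and also with the 1.5-fold change, 5 of the 10 passed (Il1b, Il1rn, Il1r2, Il1rap and Nlrp3), against 22.3% and 20.1% of all genes. The median log2 fold change of the 10 genes was 0.27 and that of all genes -0.01. The 3 comparisons share libraries in pairs and are not independent of each other.

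**Figure D2:**
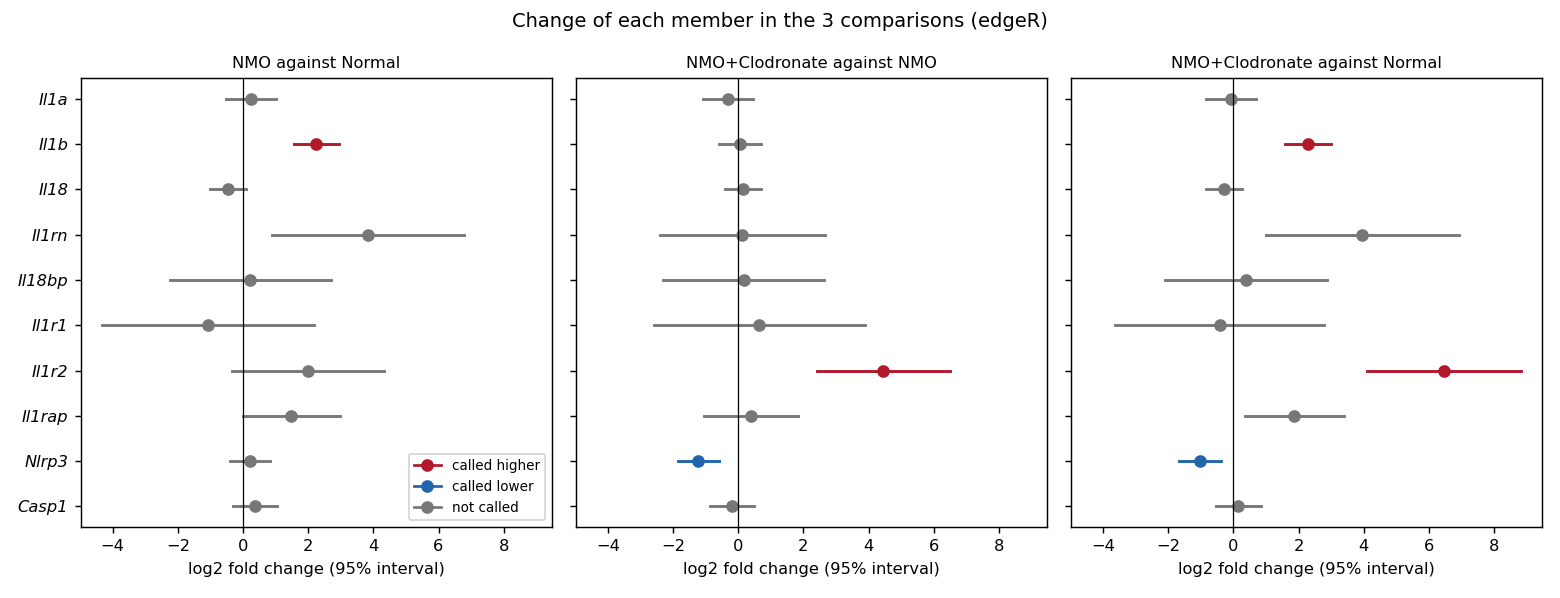
Log2 fold change of the 10 genes on the x axis in the 3 comparisons, with the gene on the y axis. Points are edgeR estimates and lines their 95% intervals, in red for genes called higher, blue for genes called lower and grey for genes not called at an adjusted p of 0.05. Il1b stood above 0 in both comparisons with Normal and at 0.05 in NMO+Clodronate against NMO.

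Il1b (GRCm38 chr2:129364570-129371139, minus strand), the main secreted agonist of the family, rose with the injection and had a like level with and without clodronate. It had 15, 8.73 and 18.8 CPM in the Normal libraries (58 to 112 counts). In NMO it had 91.2, 65.7 and 44.5 CPM (278 to 725 counts), and in NMO+Clodronate 66.5, 67.7 and 73.8 CPM (418 to 461 counts). Every injected library was above every Normal library, and the NMO libraries lay on both sides of the NMO+Clodronate libraries. The means were 14.2 ± 5.1, 67.1 ± 23.4 and 69.4 ± 3.91 CPM (SD, n = 3). NMO exceeded Normal by 2.24 on the log2 scale, with a standard error of 0.33, a 95% interval of 1.55 to 2.94 and an adjusted p of 0.00372 (edgeR quasi-likelihood test, Benjamini-Hochberg). NMO+Clodronate exceeded Normal by 2.29 with a standard error of 0.33 (adjusted p = 2.93e-04, edgeR). Both calls held in each of the 16 alternatives tried, with log2 fold changes from 1.94 to 2.49 for NMO and from 2.04 to 2.55 for NMO+Clodronate. Without NMO replicate 2, the library that stood apart, the difference of NMO from Normal was 2.25 (adjusted p = 0.00547, edgeR).

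Between NMO+Clodronate and NMO, Il1b differed by 0.05 on the log2 scale, with a 95% interval of -0.60 to 0.70 (adjusted p = 0.983, edgeR). The interval reaches from a decrease to an increase of that size, so a change of Il1b with clodronate was not detectable within those limits. The summed monocyte markers were 43.2 to 75.4 CPM in Normal, 64 to 138 in NMO and 80.9 to 125 in NMO+Clodronate. All 12 of these markers had a count in each group. None was called in NMO against Normal or in NMO+Clodronate against NMO, and Fn1 was called higher in NMO+Clodronate against Normal (log2 fold change 2.45, adjusted p = 0.0218, edgeR). The median log2 fold change of the list was 0.76 in NMO against Normal and 0.086 in NMO+Clodronate against NMO. The markers did not move alike, and 2 are given here after their values were seen. Fn1 had 1.18 to 6.47 CPM in Normal, 3.04 to 10.7 in NMO and 16.3 to 29.2 in NMO+Clodronate. Ccr2, a defining receptor of circulating monocytes, had 3.61 to 19 CPM in Normal, 6.70 to 19.6 in NMO and 1.78 to 8.61 in NMO+Clodronate. The part of monocyte transcripts in the Il1b level was not tested, and in bulk samples more cells with a transcript and more transcript per cell cannot be told apart.

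Il1a (GRCm38 chr2:129299610-129309972, minus strand), the second agonist of Il1r1, lies next to Il1b but did not show its pattern. It had 22.4 to 49.6 CPM in Normal, 25.5 to 54.7 in NMO and 25.3 to 46 in NMO+Clodronate, and the 3 groups overlapped. The mean levels were 38.1 ± 14.1, 44.9 ± 16.8 and 36.2 ± 10.4 CPM (SD, n = 3). The log2 fold change of NMO against Normal was 0.24 with a 95% interval of -0.53 to 1.01, and it was not called in any of the 16 alternatives.

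Il18 (GRCm38 chr9:50554827-50581840, plus strand), which signals through its own receptor pair and is cleaved by caspase-1, had lower values in NMO than in Normal without passing the test. The Normal libraries had 59.6, 58.4 and 51.5 CPM, the NMO libraries 47.3, 35.8 and 40.8, and the NMO+Clodronate libraries 41.1, 39 and 58.1. All NMO libraries were below all Normal libraries, and NMO+Clodronate overlapped both. NMO differed from Normal by -0.45 on the log2 scale, with a standard error of 0.26 (adjusted p = 0.643, edgeR).

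Il1rn (GRCm38 chr2:24336853-24351494, plus strand), the receptor antagonist, was almost without counts in Normal and was present in every injected library. The counts were 7, 0 and 0 in Normal, 72, 49 and 10 in NMO, and 61, 27 and 30 in NMO+Clodronate. As CPM these were at most 1.12 in Normal, 9.05, 5.87 and 1.6 in NMO, and 8.9, 4.37 and 4.8 in NMO+Clodronate. The lowest injected library (1.6 CPM) was close to the highest Normal library. NMO differed from Normal by 3.83 on the log2 scale, with a standard error of 1.40 and a 95% interval of 0.88 to 6.77, and did not pass the correction (adjusted p = 0.342, edgeR). For NMO+Clodronate against Normal the difference was 3.95 (standard error 1.40, adjusted p = 0.0922). It was called in 3 of the 16 alternatives in that comparison, which were DESeq2 (adjusted p = 0.0118), no filter (0.0485) and the fit without Normal replicate 1 (0.0213), the only Normal library with counts. The size of these changes rests on 7 Normal counts. The last 500 bases of Il1rn also hold a stretch of up to 75 bases that resembles transcripts of at least 200 other genes, and reads there may be shared, since multiple alignments were counted.

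The balance of agonist to antagonist was described by the log2 ratio of Il1b to Il1rn counts, with 0.5 added to each. It was 3.66, 6.87 and 7.81 in Normal, 3.32, 3.47 and 4.73 in NMO, and 2.89, 3.93 and 3.92 in NMO+Clodronate. The values of Normal replicates 2 and 3 are set by the added 0.5, since Il1rn had no count there. The ratio differed by -2.27 between NMO and Normal (exact two-sided permutation p = 0.2), by -0.26 between NMO+Clodronate and NMO (exact p = 0.8) and by -2.53 between NMO+Clodronate and Normal (exact p = 0.3). The smallest p that 3 against 3 libraries allow is 0.1. The test could therefore not reach 0.05. With 2 counts added to each in place of 0.5, the differences from Normal were -0.96 for NMO and -1.19 for NMO+Clodronate. Across the 9 libraries the log2 CPM of Il1b and Il1rn had a Pearson r of 0.92, the highest among the pairs of the 10 genes, in libraries that share the group differences.

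Il18bp (GRCm38 chr7:102014885-102018690, minus strand), which binds free interleukin-18, varied more within groups than between them. It had 2.11 to 5.72 CPM in Normal, 3.27 to 7.68 in NMO and 0, 14.4 and 2.56 in NMO+Clodronate. Both the lowest and the highest of the 9 libraries were in NMO+Clodronate. None of its log2 fold changes exceeded 0.39 in size, with standard errors of at least 1.17. Its 3′ end overlaps an exon of Numa1 on the opposite strand by 80 bases, and since the use of strand in counting is not given in the sources used here, reads of the 2 genes cannot be told apart there.

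Among the receptors, Il1r2 (GRCm38 chr1:40074079-40125231, plus strand), the decoy receptor, had the largest difference of the 10 genes between NMO+Clodronate and NMO. It had 0, 0 and 10 counts in Normal and 20, 15 and 15 in NMO. In NMO+Clodronate it had 158, 730 and 40 counts. As CPM these were 0 to 1.68 in Normal, 1.8 to 2.51 in NMO and 23.1, 118 and 6.41 in NMO+Clodronate. All NMO+Clodronate libraries were above all others, but they spread widely, and replicate 2 held 80.1% of the summed CPM of its group. NMO+Clodronate exceeded NMO by 4.45 on the log2 scale, with a standard error of 0.97 and a 95% interval of 2.41 to 6.49 (adjusted p = 0.0252, edgeR). Against Normal it reached 6.46 (standard error 1.12, adjusted p = 0.00134), a size that rests on 10 Normal counts.

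The call of Il1r2 depended on the libraries and the tool. Without NMO+Clodronate replicate 2 the log2 fold change was 2.71 against NMO (adjusted p = 0.502, edgeR) and 4.69 against Normal (adjusted p = 0.0633). Against NMO the call was also lost without NMO replicate 1 (adjusted p = 0.0937), replicate 2 (0.0584) or replicate 3 (0.0646), with DESeq2 (0.0786) and with limma-voom (0.261). It held in 9 of 16 alternatives, and against Normal in 14 of 16. The direction was the same in all of them. In NMO against Normal, Il1r2 differed by 2.01 with a standard error of 1.11 and was not called (adjusted p = 0.622, edgeR).

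Neutrophils are a known source of Il1r2 transcripts, although a sort for P2ry12 should leave them out, and their markers varied between libraries. The sum of 13 neutrophil markers was 603, 101 and 129 CPM in Normal, 339, 170 and 502 in NMO, and 1446, 319 and 576 in NMO+Clodronate. S100a8 and S100a9 held much of the high sums. In NMO+Clodronate S100a8 had 504, 109 and 229 CPM and S100a9 had 611, 122 and 213. In Normal replicate 1 they had 188 and 205 CPM. In replicates 1, 2 and 3, Il1r2 had 0, 0 and 1.68 CPM in Normal, 2.51, 1.8 and 2.4 in NMO, and 23.1, 118 and 6.41 in NMO+Clodronate. All 13 markers had a count in Normal and in NMO+Clodronate, Elane had none in NMO, and none of the 12 markers tested was called in any comparison. Their median log2 fold change was 0.86 in NMO+Clodronate against NMO and 1.02 against Normal. The summed markers of border macrophages were 160 to 308 CPM in Normal, 13 to 197 in NMO and 228 to 412 in NMO+Clodronate, where replicate 2 had 286. Most of it was Cbr2, which had no count in NMO replicate 2 and 125 to 395 CPM in the other libraries. Without Cbr2 the sums overlapped, at 23.2 to 36 CPM in Normal, 13 to 37.8 in NMO and 17 to 42.8 in NMO+Clodronate. None of the 7 border macrophage markers tested was called. Folr2 had no count in Normal, Cd163 had none in NMO or in NMO+Clodronate, and Cd209f had none in NMO. Endothelial cells lack CD45 and CD11b and should also be left out by the sort. Their summed markers were 128 to 167 CPM in Normal, 81.3 to 148 in NMO and 173 to 205 in NMO+Clodronate, which overlapped with neither. All 11 had a count in Normal and NMO, and Slco1a4 had none in NMO+Clodronate. Of the 10 tested, Kdr was called higher in NMO+Clodronate against NMO (log2 fold change 1.86, adjusted p = 0.0272, edgeR), and Kdr (1.37) and Slc2a1 (1.03) against Normal, where 0.529% and 4.79% of all genes were called higher. The part of these cells in the Il1r2 level was not tested.

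**Figure D3:**
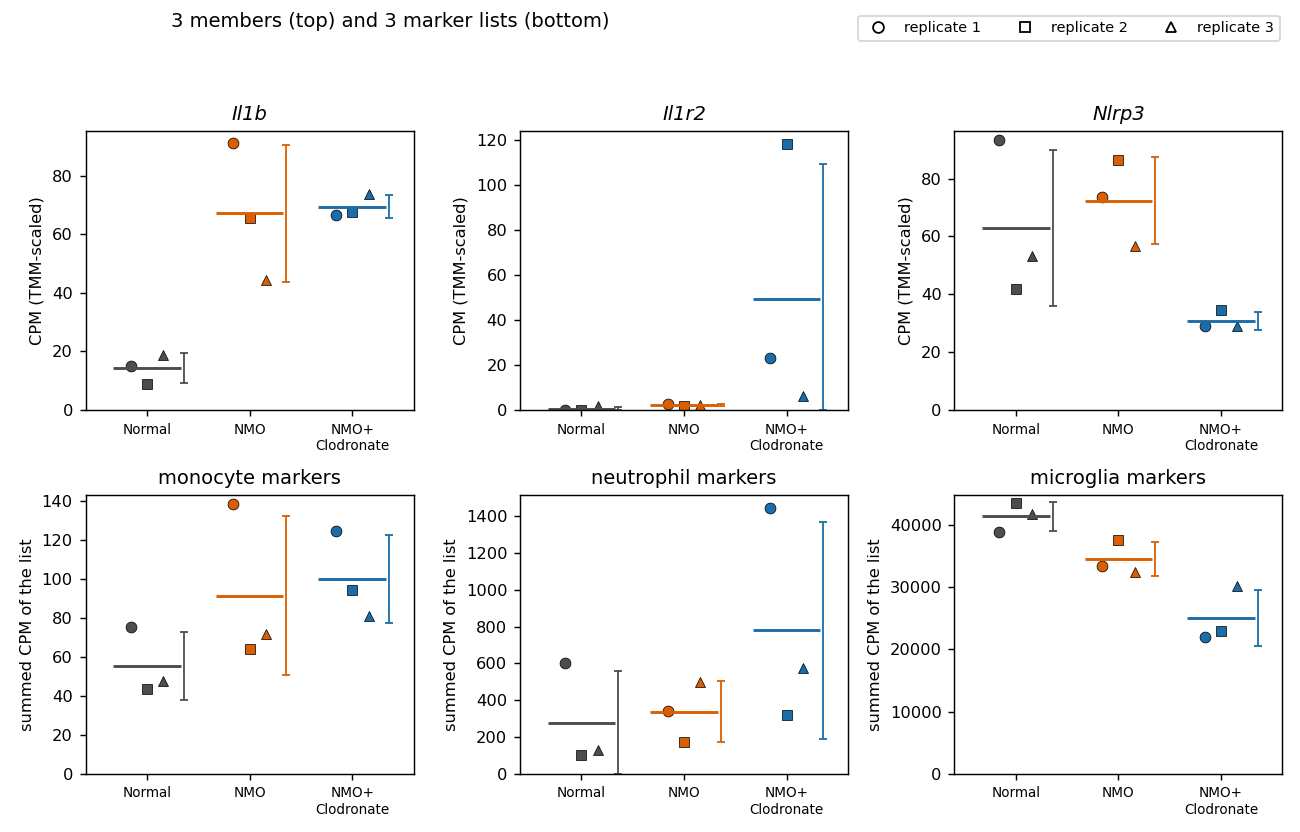
CPM of Il1b, Il1r2 and Nlrp3 (top) and summed CPM of monocyte, neutrophil and microglial markers (bottom) on the y axes, by group on the x axes. Points are libraries, horizontal lines are means and vertical bars are the SD (n = 3), drawn no lower than 0. In NMO+Clodronate replicates 1, 2 and 3, Il1r2 had 23.1, 118 and 6.41 CPM and the neutrophil sum was 1446, 319 and 576 CPM. The microglial sum and Nlrp3 were both lowest in NMO+Clodronate.

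Il1rap (GRCm38 chr16:26581704-26730117, plus strand), the chain shared by several receptors of the family, had higher values in the injected groups. It had 4.46, 3.01 and 1.01 CPM in Normal, 6.79, 10.2 and 6.88 in NMO, and 7.44, 11.5 and 12.3 in NMO+Clodronate. No injected library overlapped with Normal. On the log2 scale the difference was 1.48 for NMO (adjusted p = 0.536, edgeR) and 1.87 for NMO+Clodronate (adjusted p = 0.121), each against Normal, and neither was called in any of the 16 alternatives. The last 500 bases of Il1rap overlap an antisense transcript, Gm20319.

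Il1r1 (GRCm38 chr1:40225080-40317257, plus strand), the signalling receptor, had 0 to 44 counts in all 9 libraries and no difference that could be detected at this depth. It had 0, 2.86 and 7.4 CPM in Normal, 1.38 to 2.04 in NMO and 0.648 to 4.64 in NMO+Clodronate. The 95% interval of its log2 fold change in NMO against Normal ran from -4.32 to 2.18, so neither a large fall nor a large rise lay outside it.

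Nlrp3 (GRCm38 chr11:59541568-59566956, plus strand), the sensor of the best known inflammasome, was lower in NMO+Clodronate than in both other groups. It had 93.2, 41.8 and 53.3 CPM in Normal and 73.8, 86.5 and 56.7 in NMO. In NMO+Clodronate it had 29.2, 34.5 and 29 CPM (181 to 213 counts). All NMO+Clodronate libraries were below all others, and Normal and NMO overlapped. NMO+Clodronate differed from NMO by -1.23 on the log2 scale, with a standard error of 0.30 and a 95% interval of -1.86 to -0.59 (adjusted p = 0.0484, edgeR). From Normal it differed by -1.02, with the same standard error (adjusted p = 0.0399). NMO against Normal differed by 0.21 with a 95% interval of -0.42 to 0.83.

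Both calls of Nlrp3 lay close to the threshold. Against NMO the call held in 5 of 16 alternatives, with log2 fold changes from -1.36 to -1.08 and adjusted p values from 0.00199 to 0.149 (edgeR, DESeq2 or limma). It was lost without NMO replicate 1 (0.149) or 2 (-1.08, 0.147), without any 1 NMO+Clodronate library (0.0943 to 0.132) and without Normal replicate 2 (0.0506) or replicate 3 (0.0784), and also with DESeq2 size factors (0.0574), with limma-voom (0.054) and with only the 2 groups compared (0.0717). Against Normal it held in 6 of 16, and without Normal replicate 1 the log2 fold change was -0.62 (adjusted p = 0.27). There it was also lost without Normal replicate 3 (0.067), NMO replicate 1 (0.0578) and each NMO+Clodronate library (0.0804 to 0.0958), with library totals alone (0.0572), with limma-voom (0.0818) and with only the 2 groups compared (0.0535). Of 12 microglial markers tested, 4 were called lower in NMO+Clodronate against NMO, where 1.07% of all genes were, and 9 against Normal, where 4.43% were. None was called higher. The summed astrocyte and oligodendrocyte markers were 280 to 315 CPM in Normal, 201 to 204 in NMO and 120 to 196 in NMO+Clodronate, and the groups did not overlap. Of the 13 listed, 8 had a count in Normal and 10 in each injected group, Olig1 and Olig2 had none in any group, and Gfap had none in Normal or NMO. Of the 8 tested, none was called in NMO against Normal or in NMO+Clodronate against NMO, and Cnp, Slc1a2 and Slc1a3 were called lower in NMO+Clodronate against Normal. The part of these markers in the Nlrp3 level was not tested.

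Casp1 (GRCm38 chr9:5298517-5307265, plus strand), the protease that cleaves the precursors of interleukin-1β and interleukin-18, overlapped in all 3 groups. It had 23.4 to 34.3 CPM in Normal, 27.9 to 50.6 in NMO and 25 to 36.2 in NMO+Clodronate. Its log2 fold change was 0.36 in NMO against Normal (95% interval -0.32 to 1.04) and -0.20 in NMO+Clodronate against NMO (-0.88 to 0.47).

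**Figure D4:**
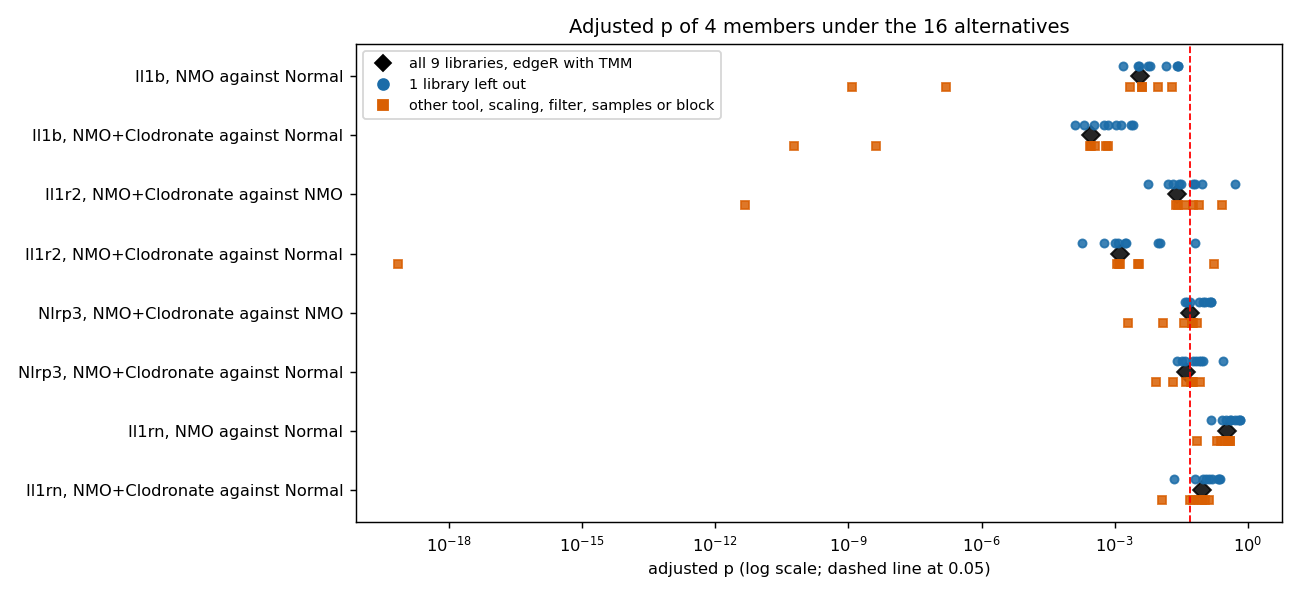
Adjusted p on a logarithmic x axis for Il1b, Il1r2, Nlrp3 and Il1rn in the comparisons named on the y axis. Diamonds are the edgeR fit to all 9 libraries, circles the fits without 1 library and squares the other alternatives, and the dashed line is at 0.05. The Il1b values lay below the line in all 16 alternatives, while those of Nlrp3 lay on both sides of it.

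The wider pathway was described from 6 lists with 74 symbols, of which 69 were in the files and 52 had enough counts to be tested. In NMO against Normal 1 of the 52 was called higher and 0 lower. In NMO+Clodronate against NMO 2 were called higher and 1 lower, and in NMO+Clodronate against Normal 4 higher and 5 lower, with the backgrounds given above.

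Of the 10 symbols listed for other ligands, Il33 was the only one tested. It had 0 to 22 counts in Normal, 0 in each NMO library and 0 to 33 in NMO+Clodronate, and was not called. None of the 3 other receptors tested was called either. Il18rap, the accessory chain of the interleukin-18 receptor and chosen here after its values were seen, had 0 to 3.76 CPM in Normal, 0 to 5.63 in NMO and 15.9 to 31.4 in NMO+Clodronate. All NMO+Clodronate libraries were above all others, which between NMO+Clodronate and NMO also held for 7.89% of all genes, while Normal and NMO overlapped. Against NMO it differed by 3.65 on the log2 scale (standard error 1.16, adjusted p = 0.148, edgeR). It was called there in 3 of 16 alternatives, among them no filter (adjusted p = 1.20e-04) and the fit without NMO replicate 2 (log2 fold change 7.28, adjusted p = 0.00954), the library with the 5.63 CPM. Against Normal it differed by 3.55 (adjusted p = 0.065, edgeR) and was called in 7 of 16 alternatives. The summed lymphocyte markers were 13.2 to 20.9 CPM in Normal, 9.77 to 21.6 in NMO and 9.72 to 15.4 in NMO+Clodronate. Of the 2 tested, none was called (median log2 fold change -3.37 against NMO). Their part in the Il18rap level was not tested.

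In receptor signalling all 17 genes listed were tested, and none was called in NMO against Normal or in NMO+Clodronate against NMO. Against Normal, 2 were called lower in NMO+Clodronate. Irak2, a kinase downstream of MyD88, fell from 58.8 ± 12.6 to 28.1 ± 4.54 CPM (SD, n = 3), a log2 fold change of -1.06 with a standard error of 0.29 (adjusted p = 0.0259, edgeR). Tab2, an adaptor of the kinase TAK1, fell from 336 ± 17 to 201 ± 23.2 CPM (adjusted p = 0.012), a log2 fold change of -0.74. For both, all NMO libraries were also below all Normal libraries, as for 8.2% of all genes, without a call. NMO had 28 to 41.4 CPM of Irak2 (log2 fold change -0.68, adjusted p = 0.456, edgeR) and 241 to 281 CPM of Tab2 (-0.33, adjusted p = 0.597). NMO+Clodronate differed from NMO by -0.38 in Irak2 and by -0.41 in Tab2. Irak2 lost its call without Normal replicate 2 or 3 or any NMO+Clodronate library (adjusted p 0.0521 to 0.155), and Tab2 kept it in all 16 alternatives. The median log2 fold change of the list was -0.21 in NMO+Clodronate against Normal.

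Of 18 inflammasome sensors and partners, 13 were tested. Naip2, which senses bacterial proteins for the NLRC4 inflammasome, was called higher in NMO+Clodronate against both other groups. It had 79.5 to 94.4 CPM in Normal, 76.7 to 110 in NMO and 184, 231 and 188 in NMO+Clodronate. All NMO+Clodronate libraries were above all others. Naip2 exceeded NMO by 1.06 on the log2 scale, with a standard error of 0.21 (adjusted p = 0.0148, edgeR), and 1 of 16 alternatives ended the call, the fit without NMO+Clodronate replicate 2 (0.105). Against Normal it was 1.19 (adjusted p = 0.00135) and held in all 16. Naip2 has close paralogs, and reads that align to several of them may have been counted for each.

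Txnip, a thioredoxin-binding protein reported to interact with NLRP3, went the other way. It had 593 to 1036 CPM in Normal, 639 to 827 in NMO and 426, 249 and 186 in NMO+Clodronate. NMO+Clodronate differed by -1.30 on the log2 scale from NMO (standard error 0.27, adjusted p = 0.0223, edgeR) and by -1.38 from Normal (adjusted p = 0.00346). The difference from NMO missed the threshold in 4 of 16 alternatives, which included leaving out NMO replicate 1 (0.102) or NMO+Clodronate replicate 2 (0.122) or 3 (0.0571). Against Normal, NMO+Clodronate was also lower in Nek7, a kinase that NLRP3 needs for assembly, and in P2rx7, the ATP-gated channel that triggers it. Nek7 had a log2 fold change of -1.05 (adjusted p = 0.0271, edgeR) and P2rx7 of -0.73 (adjusted p = 0.0139). Nek7 lost its call without any 1 of the Normal libraries or without NMO+Clodronate replicate 2 or 3 (0.0548 to 0.132), and P2rx7 without Normal replicate 1 (0.0745) or NMO+Clodronate replicate 2 (0.0823).

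Nek7 was also lower in all NMO libraries than in all Normal libraries, with 41 to 46.4 against 78.6 to 97.7 CPM, and was not called there (log2 fold change -1.05, adjusted p = 0.135, edgeR). The list's median log2 fold change was -0.18 in NMO against Normal, 0.00 in NMO+Clodronate against NMO and -0.13 in NMO+Clodronate against Normal. Of the caspases and pore formers, 6 were tested and none was called in any comparison.

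**Figure D5:**
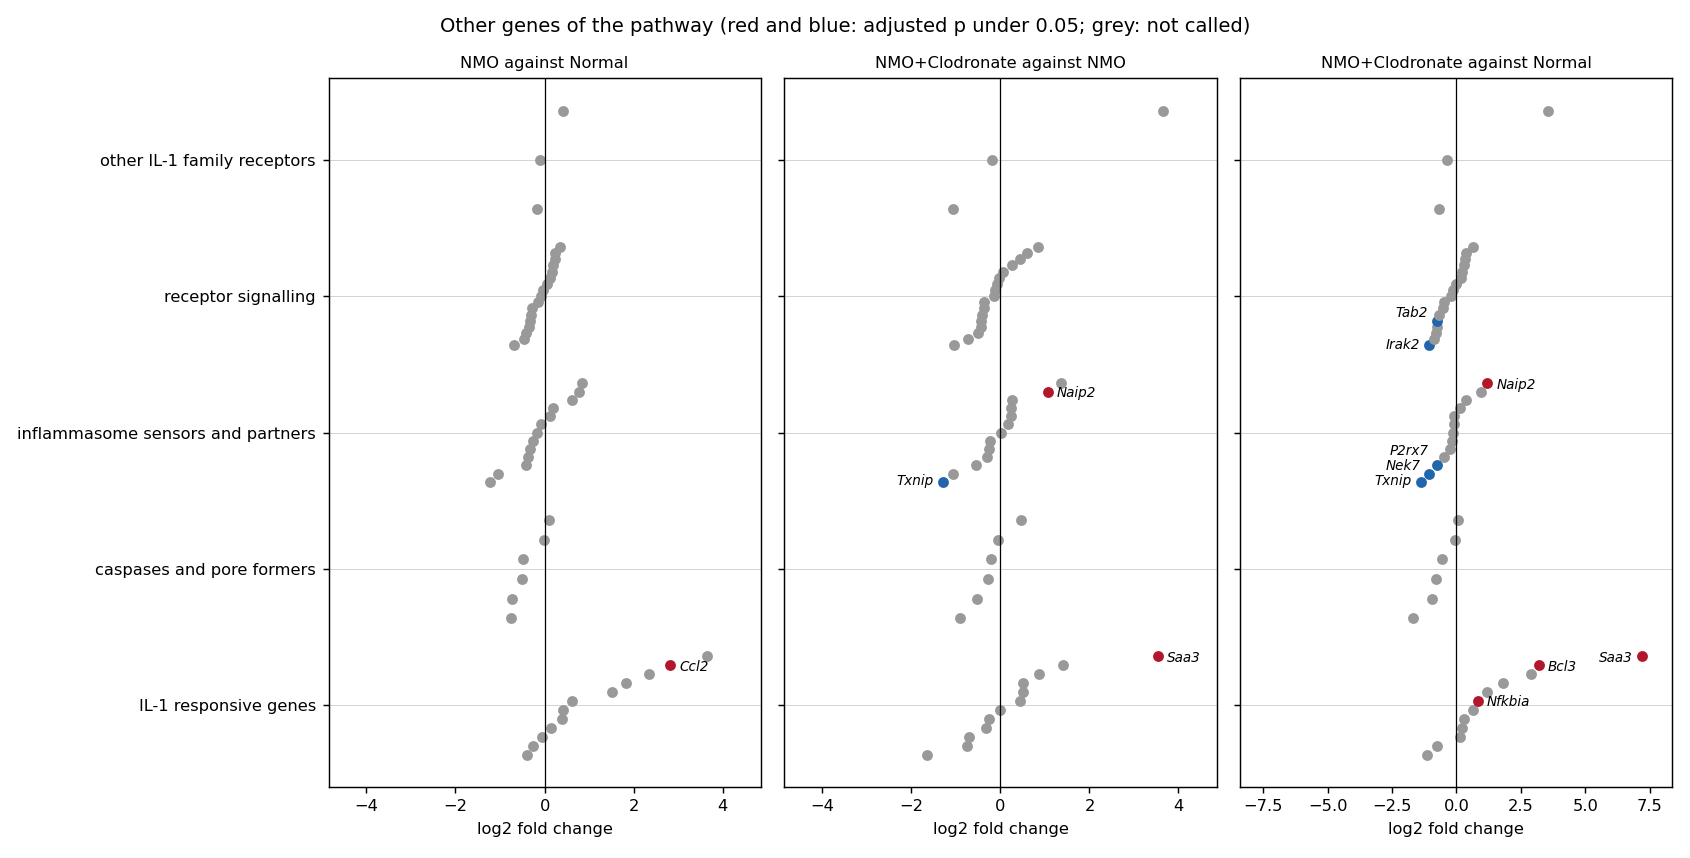
Log2 fold change on the x axis of 51 tested pathway genes, grouped by list on the y axis, in the 3 comparisons. Within a list the points are ordered by their value, with red for genes called higher, blue for genes called lower and grey for genes not called at an adjusted p of 0.05, and Il33 is left out because all NMO libraries had no count. Called genes are named. The 5 called lower in NMO+Clodronate against Normal are in the signalling and inflammasome lists, which hold 17 and 13 of the 51 genes.

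Among 15 genes known to respond to interleukin-1, 12 were tested. Ccl2, a chemokine that attracts monocytes, was the only one called in NMO against Normal. It had 4.94, 5.87 and 14 CPM in Normal, 62.2, 95.4 and 16.7 in NMO, and 25.5, 15.4 and 14.7 in NMO+Clodronate. NMO was above Normal in 3 of 3 libraries, with a log2 fold change of 2.82 and a standard error of 0.55 (adjusted p = 0.0258, edgeR). Ccl2 missed the threshold in 7 of 16 alternatives, including those that left out Normal replicate 1 (0.153), Normal replicate 2 (0.154), NMO replicate 1 (0.0866) or NMO replicate 2 (0.131). NMO+Clodronate against NMO had a log2 fold change of -1.65 (adjusted p = 0.144), with overlapping groups.

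Saa3, an acute phase protein, had 0, 0 and 8 counts in Normal, 10, 105 and 18 in NMO and 508, 655 and 96 in NMO+Clodronate. NMO+Clodronate was called higher against NMO, by 3.53 on the log2 scale with a standard error of 0.84 (adjusted p = 0.042, edgeR), and against Normal, by 7.18 (adjusted p = 4.67e-04). Saa3 against NMO missed the threshold in 8 of 16 alternatives, including those that left out NMO+Clodronate replicate 1 (0.0686) or 2 (0.234), NMO replicate 1 (0.138) or 3 (0.113), or Normal replicate 2 (0.0506). Without NMO replicate 2, which had most of the NMO counts, the log2 fold change was 4.99 (adjusted p = 0.00724, edgeR). Against Normal, NMO+Clodronate was also higher in Bcl3, a nuclear regulator of NF-kB, and Nfkbia, its cytoplasmic inhibitor. Bcl3 had 0.673 to 8.13 CPM in Normal, 14.2 to 21.3 in NMO and 26.4 to 39.5 in NMO+Clodronate. Its log2 fold change against Normal was 3.20 for NMO+Clodronate (adjusted p = 0.00505, edgeR) and 2.34 for NMO (adjusted p = 0.147, not called). All NMO libraries were above all Normal libraries, as for 9.21% of all genes. Between NMO+Clodronate and NMO Bcl3 differed by 0.86 (adjusted p = 0.621). Nfkbia had 576 ± 99.1 CPM in Normal, 752 ± 86.6 in NMO and 1019 ± 121 in NMO+Clodronate (SD, n = 3). NMO+Clodronate exceeded Normal by 0.82 on the log2 scale (adjusted p = 0.00632). The difference was 0.39 between NMO and Normal and 0.44 between NMO+Clodronate and NMO, neither of them called. Both kept their calls in NMO+Clodronate against Normal in all 16 alternatives. The median log2 fold change of the list was 0.52 in NMO against Normal, 0.21 in NMO+Clodronate against NMO and 0.73 in NMO+Clodronate against Normal. Early genes that respond to tissue dissociation, some of which are also NF-kB targets, had summed levels that overlapped, with 4218 to 5995 CPM in Normal, 4063 to 5453 in NMO and 4745 to 5249 in NMO+Clodronate. Of 13 tested, Ier3 was called higher in NMO+Clodronate against NMO (log2 fold change 1.39, adjusted p = 0.0132, edgeR) and both Ier3 (1.66, adjusted p = 8.52e-04) and Ier2 (1.21, adjusted p = 0.0354) against Normal, where 0.529% and 4.79% of all genes were called higher. Their part in the levels of Saa3, Bcl3 and Nfkbia was not tested.

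The genes that followed Il1b and Il1r2 most closely were sought by the Pearson r of log2 CPM over the 9 libraries. The search covered the 8835 tested genes whose mean count was 50 or more, and r does not measure the size of a change. For Il1b the closest were Arl14ep (r = 0.97), Eif5a (0.967), a translation factor, and Rrs1 (0.965), which acts in ribosome assembly. Arl14ep changed less than Il1b, with 22.3 to 24.2 CPM in Normal, 29.3 to 31.9 in NMO and 28.5 to 29.8 in NMO+Clodronate. Rrs1 had 13.1 to 17 CPM in Normal, 43.3 to 55.8 in NMO and 40 to 53.5 in NMO+Clodronate, so that both injected groups lay above Normal, as for Il1b. For Il1r2 they were Rps7 (0.963), a ribosomal protein, Igsf6 (0.961) and Sla (0.952), an adaptor of immune receptor signalling. Igsf6 was highest in NMO+Clodronate replicate 2, at 250 CPM, as was Il1r2. Rps7 changed less than Il1r2, with 31.8 to 41.2 CPM in Normal, 37.3 to 42.5 in NMO and 43.6 to 56.9 in NMO+Clodronate. The values are descriptions over libraries that share the 3 groups, and the named genes are the extremes of many.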

How the data were processed

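QuantSeq 3′ libraries of sorted microglia were read as single 75-base reads, aligned with Bowtie2 to mm10 and counted with Bedtools, which was given both unique and multiple alignments. The authors deposited raw read counts per gene symbol, with no normalization. Annotation and strand settings are not given in the sources used here. Multiple alignments can count a read at several gene copies. Each file had 23282 entries, and the 35 symbols that occurred more than once were summed.

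The analysis used edgeR 4.0.16 in R 4.3.3. Low genes were removed by filterByExpr (minimum count 10, minimum total 15), library sizes were scaled by TMM, and a quasi-likelihood model with 1 coefficient per group was fitted to all 9 libraries, with a common biological coefficient of variation of 0.519. Two-sided F-tests were adjusted by Benjamini and Hochberg over the 12292 genes of each comparison, with a threshold of 0.05 for a call. Alternatives were DESeq2 size factors, library totals alone, DESeq2 1.42.0, limma-voom (limma 3.58.1), no filter, only the 2 groups compared, a replicate block and leaving out each library. The libraries held 5788234 to 7837219 counts, and floors cover counting error only. Between replicates the chi-square divided by its degrees of freedom was 22.8 to 54.8, above the 1 of counting error alone.

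All 10 members are named. Pathway genes are named when called in at least 1 comparison, with Il33, the only other ligand tested, and Il18rap named beside them after their values were seen, and likeness is given for the 3 genes closest to Il1b and to Il1r2. The members and lists were chosen with earlier results of these data known. Gene positions are from GENCODE on GRCm38, and the 3′ ends were compared with BLAST 2.17.0 at a minimum of 90% identity over 50 bases. Start site windows are from RefSeq on GRCm38.p6, where all 10 genes matched.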

Additional observations from a re-analysis of the deposited data

How the results depend on the processing

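Of 480 recomputed values for the 10 genes, 420 kept their direction and their side of the threshold, 30 lost a call, 3 gained one and 27 changed sign, all of the last for changes that were not called. The number of the 10 genes called in NMO against Normal was 1 without any 1 library and 2 at the study's thresholds. In NMO+Clodronate against NMO it was 0 to 2 without 1 library, 1 with DESeq2 size factors, DESeq2 or only the 2 groups compared, and 0 with limma-voom. In NMO+Clodronate against Normal it was 1 to 3 without 1 library, 1 with limma-voom and 5 at the study's thresholds. Over all genes, 61 were called in NMO against Normal, but 96 with library totals alone, 224 with DESeq2, 223 with no filter, 34 with only the 2 groups, 979 at the study's thresholds and 20 to 75 without 1 library. In NMO+Clodronate against NMO 196 were called, but 465 with DESeq2, 496 with no filter, 73 with only the 2 groups, 1320 at the study's thresholds and 51 to 231 without 1 library. Against Normal 1134 were called, 2472 at the study's thresholds and 649 to 1263 without 1 library. Library totals alone moved the median of all genes in NMO against Normal by 0.11 on the log2 scale. The cause of these shifts was not tested.

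The replicate numbers did not pair the libraries, since same-numbered libraries of different groups had correlations of -0.0164 to 0.0302 after removal of group means. With the replicate number as a block, 0 of the 10 genes were called in NMO+Clodronate against NMO, where Il18rap was called (4.74, adjusted p = 0.0416), Il1r2 had 4.03 (adjusted p = 0.0565, edgeR) and Nlrp3 -1.21 (adjusted p = 0.0535). Nlrp3 against Normal had -0.98 (adjusted p = 0.053), and Ccl2 in NMO against Normal had 2.68 (adjusted p = 0.0691). Under the block, 53, 197 and 1124 genes were called in the 3 comparisons. Il18bp changed sign with the block, to -0.016, -0.46 and -0.48 in NMO against Normal, NMO+Clodronate against NMO and NMO+Clodronate against Normal, and Nek7 to -0.034 in NMO+Clodronate against NMO.

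With limma-voom the sign changed for Il18bp in NMO+Clodronate against NMO (-1.81) and against Normal (-1.59), for Il1r1 in NMO (0.49) and NMO+Clodronate (0.77) against Normal, and for Nek7 in NMO+Clodronate against NMO (-0.059). With library totals alone it changed for Nek7 in that comparison (-0.052) and for Txnip in NMO against Normal (0.0018) and Il18rap (0.077). Without 1 library, signs changed within these ranges. In NMO against Normal they were -0.031 to 0.50 for Il1a, -0.22 to 0.47 for Il18bp, -1.66 to 0.15 for Il1r1, -0.017 to 0.60 for Nlrp3, -0.23 to 0.21 for Txnip and -3.74 to 0.56 for Il18rap. In NMO+Clodronate against NMO they were -0.17 to 0.35 for Il1b, -0.043 to 0.29 for Il18, -0.30 to 0.71 for Il1rn, -1.97 to 0.75 for Il18bp, -0.12 to 1.09 for Il1r1, -0.37 to 0.094 for Casp1 and -0.34 to 0.27 for Nek7. In NMO+Clodronate against Normal they were -0.35 to 0.17 for Il1a, -1.74 to 0.98 for Il18bp and -1.18 to 0.82 for Il1r1. The log2 ratio of Il1b to Il1rn ran, without 1 library, from -3.50 to -1.42, from -0.52 to 0.18 and from -3.76 to -1.68 in the 3 comparisons. With 1 added to each count it was -1.61, -0.25 and -1.86, and with 2 added -0.96, -0.23 and -1.19. Il1rn, Il1r1, Il18bp and Il1r2 had 0 counts in some libraries.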
